A study of Bos taurus and Mus musculus with 16 samples.

Results

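Bovine blastocysts in which the transcription factor gene TEAD4 had been targeted by base editing were compared with control blastocysts, using 12 of the 16 samples of the study. All 6 edited and 6 control samples of cattle were chosen by their titles. In both groups zygotes had received BE3 mRNA, encoding a base editor in which a cytidine deaminase, fused to a nickase form of Cas9, turns C into T at a guided site. The edited group had also received a mixture of TEAD4 guide RNAs, and controls had received the editor mRNA without a guide, so effects of a guide as such and of losing TEAD4 cannot be told apart. Embryos were collected as blastocysts at day 7.0. The labels do not give the number, sex or editing rate of the embryos behind a sample, nor whether the samples came from separate cultures, so each p-value reflects sample-to-sample spread alone, part of which may be technical. The other 4 samples, 2 edited and 2 control mouse morulae at day 3.25, are used here only to show where the bovine response differed.

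TEAD4 is a DNA-binding protein that recruits the coactivators YAP1 and WWTR1 (TAZ). In outer cells of the mouse embryo, where the Hippo kinases LATS1 and LATS2 are held inactive, YAP1 enters the nucleus and TEAD4 switches on the genes of the trophectoderm, the epithelium that forms the placenta. In inner cells active LATS kinases keep YAP1 out of the nucleus, and these cells form the inner cell mass, which later splits into epiblast and primitive endoderm. The question here was which of these genes, and which others, differed in bovine blastocysts, and how large a difference the data leave possible where no difference was called.

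Values are read counts per gene divided by a size factor per sample, called normalized reads below. Recovered totals were 934078 to 2501592 reads in the control samples and 817329 to 2259064 in the edited samples, where 3 reads are worth 1.71 to 5.56 normalized reads. Of 14852 genes, 8884 averaged 10 normalized reads or more and were tested with limma on log2(value + 1). A log2 fold change below is always edited minus control on that scale, followed by its 95% interval, and it understates the change of low genes. The ribosomal RNA gene RN18S1 took 12.4 to 36.6% of the reads in control samples and 9.27 to 19.7% in edited samples, and control 6, with the highest share, had the lowest mean correlation with the other samples (0.849). The part of this difference in the results was not tested, beyond the scaling described in the closing section.

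TEAD4 was lower in the edited blastocysts. Control samples held between 61.2 and 124.9 normalized reads of TEAD4 with a median of 92.9, and edited samples between 22.6 and 65.6 with a median of 37.5. The groups overlapped by a single pair, since edited 6 (65.6) lay above control 3 (61.2). Mean levels were 96.7 ± 23.4 (SD, n = 6) and 41.2 ± 15.6 (SD, n = 6), and the log2 fold change was -1.25 ± 0.25 (SE), with an interval of -1.77 to -0.74. On this scale the edited samples kept 41.9% of the control level, with bounds of 29.3 and 60.0%. An exact two-sided permutation test over all 924 splits gave p = 0.00433, where the smallest p possible is 0.00216. The adjusted p of limma over all 8884 genes was 0.235, so TEAD4 was not among the genes called in the whole table. Base editing changes letters of the gene, and a transcript with a new stop codon may still be counted, so the TEAD4 level does not measure how much TEAD4 protein was left.

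Across the table limma called 1 of 8884 genes at an adjusted p of 0.05, or 0.0113%, and that gene, LOC101905257, fell. It is a predicted protein-coding locus whose function is not named by its symbol. LOC101905257 stood at 210 to 623 normalized reads in control samples (median 392) and at 43.5 to 139 in edited samples (median 72.9). Every edited sample lay below every control sample. The log2 fold change was -2.31 ± 0.27 (SE; interval -2.87 to -1.74), which leaves 20.2% of the control level, with a limma adjusted p of 0.000478. The exact permutation test gave its smallest p, 0.00216. No gene was called higher. The next lowest p-values after TEAD4 were those of HIST1H1C, a linker histone, LAMA1, a laminin chain, and GNB4, a G protein beta subunit. GNB4, named after its values were seen, averaged 82.1 ± 8.02 normalized reads (SD, n = 6) over control and 44.7 ± 12.4 (SD, n = 6) over edited samples, a log2 fold change of -0.90 (-1.32 to -0.48, limma adjusted p = 0.470). DESeq2 on the recovered reads called 5 genes, these 3 with TEAD4 and LOC101905257, all lower. At an unadjusted p under 0.05, limma passed 522 genes (5.88% of those tested), 246 higher (2.77%) and 276 lower (3.11%). At an unadjusted p under 0.01 it passed 85 (0.957%).

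**Figure D1:**
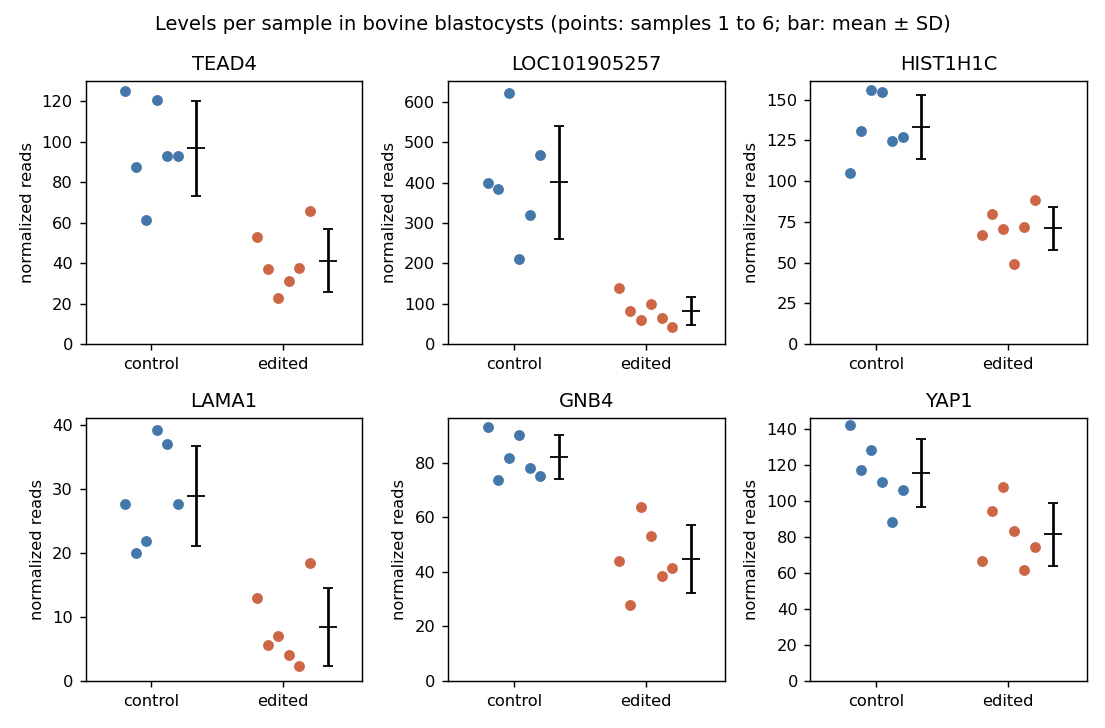
Normalized reads per sample (y axis, linear) of 6 genes in the 6 control and 6 edited samples, with 1 point per sample and the mean ± SD beside each group. LOC101905257, HIST1H1C, LAMA1 and GNB4 show no overlap between groups, while TEAD4 overlaps by edited 6 and control 3, and YAP1 overlaps more widely.

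The wider result of this comparison is how closely most genes were bounded. For 6788 of 8884 genes (76.4%) the whole 95% interval lay within a 2-fold change in either direction, and for 1983 (22.3%) it lay within 1.5-fold. The estimate itself passed 2-fold for 54 genes (0.608%), 41 lower and 13 higher, and the interval lay wholly beyond 2-fold for LOC101905257 and LAMA1 alone. The middle 50% of all log2 fold changes ran from -0.21 to 0.21, around a median of 0.01. Intervals are for each gene on its own and are not adjusted for the number of genes. Another 1758 genes had an interval that included 0 and passed 2-fold on at least 1 side. For 106 of them it passed 2-fold on both sides, and for these 106 the data set no useful limit.

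Precision followed the level of the gene. Between a mean of 10 and 30 normalized reads the median interval reached 0.72 log2 units to each side, and 51.8% of 3025 genes were bounded within 2-fold. Between 30 and 100 normalized reads 85.2% of 3519 genes were bounded within 2-fold, and between 100 and 300 it was 94.6% of 1665. Above 1000 normalized reads, 98.2% of 164 genes were bounded within 2-fold and 62.8% within 1.5-fold. A missed threshold therefore says least about genes of low level, which include several lineage factors described next.

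**Figure D2:**
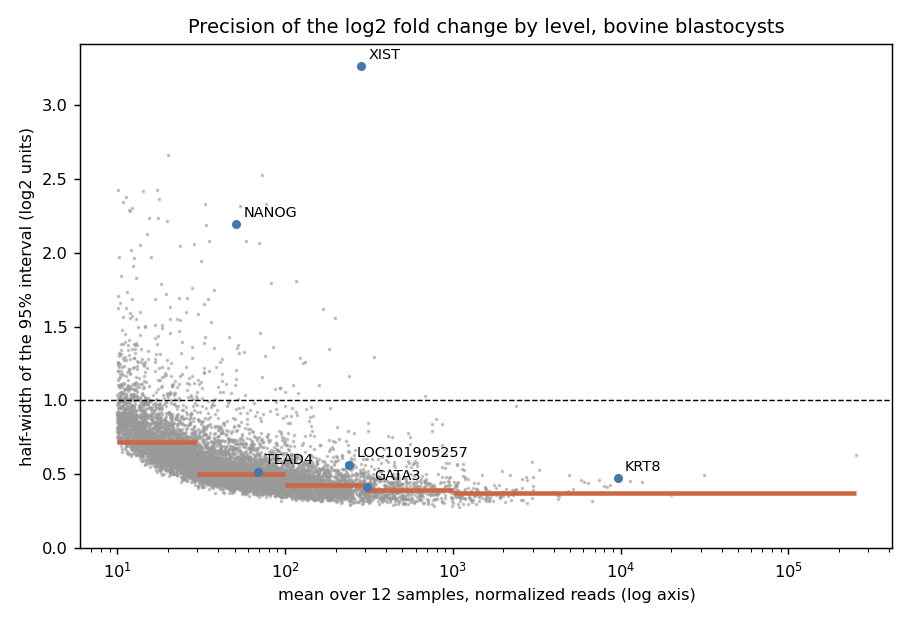
Distance from the log2 fold change to either end of its 95% interval (y axis, log2 units) against the mean level of the gene (x axis, normalized reads, log scale), with 1 grey point per tested gene, named genes in blue, orange bars at the median of each level range and a dashed line at 1. The bars fall from 0.72 at means of 10 to 30 to 0.38 at means above 1000, while NANOG and XIST lie far above the bars of their ranges.

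Of 46 genes taken as the core of the TEAD4 and lineage pathway, 32 were tested, 7 had a mean under 10 and 7 had no row under that symbol. None of the 32 tested, TEAD4 included, passed the limma threshold. Of the 31 besides TEAD4, 16 had intervals within 2-fold and 7 within 1.5-fold. For 19 of the 31 the lower bound lay above -1, so a loss of more than 2-fold lies outside their interval.

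Of the trophectoderm genes, GATA3, KRT8 and KRT18 covered similar ranges in both bovine groups and were bounded closely, while others such as PTGES, ID2 and CDX2 were not. GATA3, a trophectoderm transcription factor and TEAD4 target, stood at 209 to 350 normalized reads in control samples (median 321) and at 171 to 363 in edited samples (median 336). Its log2 fold change was -0.02 (-0.43 to 0.40), so the groups covered the same range and a change of more than 1.5-fold in either direction lies outside the interval. KRT8 and KRT18 encode the paired keratins of the trophectoderm cytoskeleton. KRT8 stood at 6451 to 13467 normalized reads in control samples (median 8475) and 5633 to 14808 in edited samples (median 10585), with a log2 fold change of 0.14 (-0.33 to 0.62). KRT18 had a log2 fold change of 0.05 (-0.44 to 0.55). Both keratins were thus bounded within 2-fold. GATA2 had -0.43 (-1.19 to 0.34) and KRT19 had 0.39 (-0.77 to 1.56), so neither of these was bounded within 2-fold.

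CDX2, the transcription factor that maintains trophectoderm identity, was under the mean set for testing. It stood at 1.46 to 19.9 normalized reads in control samples (median 6.79) and at 2.01 to 11.1 in edited samples (median 6.76). These values rest on 1 to 18 reads per control library and 2 to 16 per edited library. Fitted without the filter on low values, CDX2 had a log2 fold change of -0.18 (-1.20 to 0.85). A loss beyond 2-fold therefore remains inside the interval, on a scale that understates the change of low genes. ELF5, TFAP2A and IFNT2, further trophoblast genes, were also under a mean of 10. Control and edited medians were 6.60 and 3.79 for TFAP2A, 1.13 and 0.94 for ELF5, and 0.66 and 1.21 for IFNT2. TFAP2C, a trophectoderm factor that binds with GATA3 at shared enhancers, stood at 229 to 333 normalized reads in control and 194 to 248 in edited samples. Its log2 fold change was -0.35 (-0.67 to -0.03), an interval on the lower side but within 2-fold.

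Over the whole trophectoderm list, 19 of 28 genes were tested, of which 8 had a log2 fold change below 0, against 48.5% of all tested genes. The median was 0.07, against 0.01 over all genes, and 10 of the 19 were bounded within 2-fold. At an unadjusted limma p under 0.05 there were 3 lower genes, TEAD4, TFAP2C and PTGES, and 1 higher gene, SLC2A1. The shares over all tested genes were 3.11% lower and 2.77% higher. PTGES makes prostaglandin E2, and SLC2A1 is a glucose transporter of the trophectoderm. PTGES had a log2 fold change of -1.12 (-2.23 to -0.0028), and its control values ran from 4.62 to 110.4, which is wider than the edited range of 13.2 to 39.6. SLC2A1 had 0.67 (0.18 to 1.16), with 141 to 363 normalized reads in control and 252 to 554 in edited samples. Neither passed adjustment over all genes (limma adjusted p = 0.792 for both).

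Genes listed as products of the bovine trophoblast were poorly resolved. Of 32 symbols, 4 were tested and none was bounded within 2-fold. PAG2, a pregnancy-associated glycoprotein, stood at 6.16 to 206 normalized reads in control samples (median 102) and at 7.46 to 139 in edited samples (median 15.1), with a log2 fold change of -1.73 (-3.19 to -0.27). The groups overlapped over most of their range and the limma adjusted p was 0.792. IFNT3, an interferon tau gene by which the ruminant embryo signals its presence to the mother, had 0.19 (-1.02 to 1.39). PTGS2, the inducible cyclooxygenase, had -0.55 (-1.59 to 0.48), and SSLP1 had 0.08 (-1.31 to 1.47). PAG and interferon tau genes belong to families of near-identical copies, so their counts are uncertain.

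**Figure D3:**
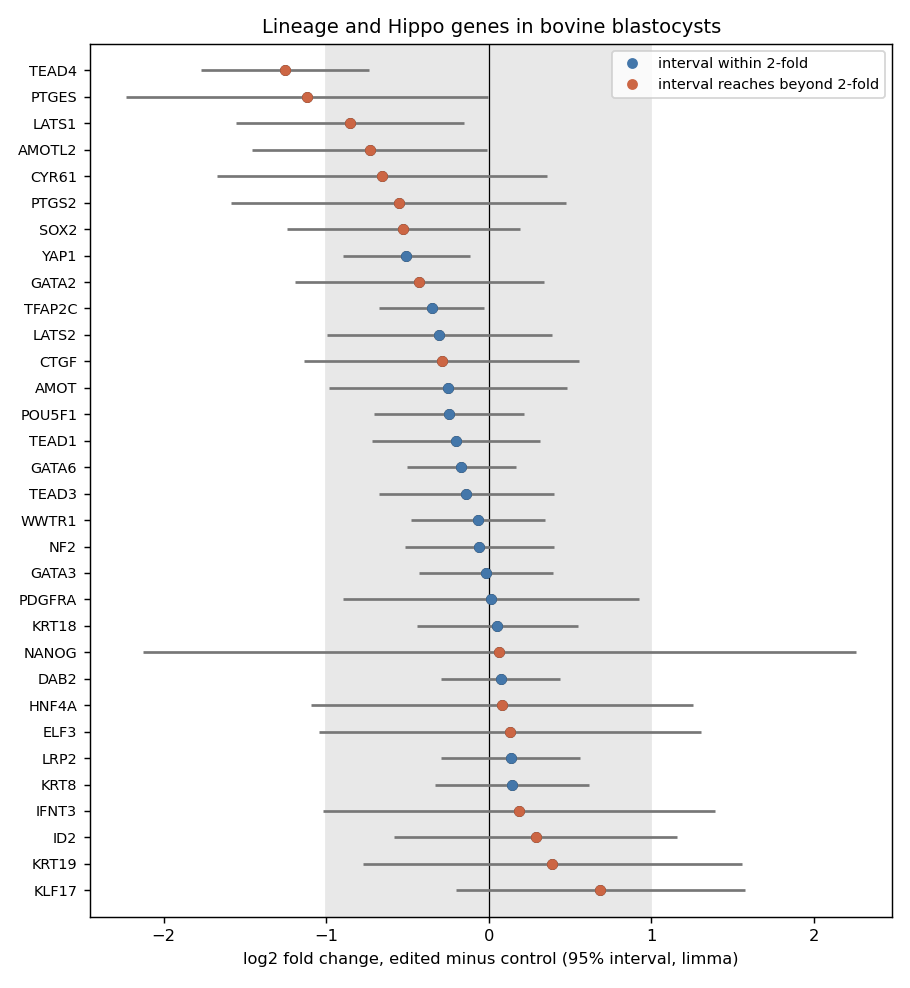
Log2 fold change (edited minus control, points) with 95% intervals (lines) of the 32 tested core genes in bovine blastocysts, with the range within 2-fold shaded. TEAD4 lies at -1.25 (-1.77 to -0.74), GATA3, KRT8, KRT18, DAB2 and LRP2 lie inside the shaded range, and the interval of NANOG spans the plot from -2.13 to 2.26.

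Among the TEAD4 relatives and partners, the point estimates lay mostly below 0. The paralogs TEAD1 and TEAD3, which bind the same DNA motif, had log2 fold changes of -0.20 (-0.72 to 0.31) and -0.14 (-0.67 to 0.40), and the mean of TEAD2 was under 10. YAP1, the main coactivator, stood at 87.9 to 142 normalized reads in control samples (median 114) and at 61.4 to 108 in edited samples (median 78.9). The YAP1 groups overlapped between 87.9 and 108, and the log2 fold change was -0.51 (-0.90 to -0.12, limma adjusted p = 0.792). WWTR1, its paralog, had -0.06 (-0.48 to 0.35), which bounds it within 1.5-fold.

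Upstream of YAP1, the estimates of the core kinases and their scaffolds lay mostly below 0 and varied in size. LATS1, the kinase that phosphorylates YAP1, had a log2 fold change of -0.85 (-1.55 to -0.15). LATS2, its paralog, had -0.30 (-0.996 to 0.39). The kinases STK3 and STK4, which activate LATS, had -0.03 (-0.53 to 0.46) and 0.03 (-0.61 to 0.67), so both were bounded within 2-fold. NF2, the membrane scaffold that brings LATS to its activators, had -0.06 (-0.52 to 0.40). WWC2, a scaffold of the KIBRA family that helps activate LATS, was the member after TEAD4 with the lowest p. It stood at 71.3 to 102 normalized reads in control samples and 44.1 to 66.8 in edited samples, with no overlap, and its log2 fold change was -0.64 ± 0.17 (SE, limma adjusted p = 0.792). Groups did not overlap for 22 of the 8884 genes (0.248%), 14 with edited samples below (0.158%) and 8 above (0.09%). AMOT and AMOTL2 encode angiomotins, which hold YAP1 at cell junctions. AMOT had a log2 fold change of -0.25 (-0.98 to 0.48) and AMOTL2 of -0.73 (-1.46 to -0.01).

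As a list, 22 of the 23 tested Hippo and TEAD genes had a log2 fold change below 0, with a median of -0.29, against 48.5% and 0.01 over all tested genes. Without TEAD4 it was 21 of 22, with a median of -0.29. No member passed adjustment over all genes, and 16 of 23 were bounded within 2-fold. An unadjusted limma p under 0.05 was reached by 5 of 23, all lower (TEAD4, WWC2, YAP1, LATS1 and AMOTL2), against 3.11% lower among all tested genes. Per sample, the list level was the median deviation of its members from the control means, less that of all tested genes. Control samples are part of these means and edited samples are not. The list level was -0.41 to -0.30 in the 6 edited samples. In 5 control samples it was -0.07 to 0.15, and in control 5 it was -0.35, inside the edited range. These are members of 1 pathway measured in the same 12 libraries, so their common sign does not count as repeated evidence.

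Genes switched on by YAP1 and TEAD in other cells showed the same sign. All 12 tested members of that list had log2 fold changes below 0, against 48.5% of all tested genes. They ran from -0.83 to -0.21 with a median of -0.36, and 5 were bounded within 2-fold. Unadjusted limma p-values were under 0.05 for GADD45A, a growth arrest and DNA damage gene, with -0.83 (-1.51 to -0.16), and for AMOTL2. Over all tested genes, 3.11% were lower at that threshold. The secreted matrix proteins CYR61 and CTGF (CCN1 and CCN2), the usual readouts of YAP1 activity, had -0.66 (-1.67 to 0.36) and -0.29 (-1.13 to 0.56). Both lay under a mean of 20 normalized reads and were not bounded within 2-fold. Of the 12 members, 4 (AMOTL2, LATS2, PTPN14 and WWC1) are also in the Hippo list, and GADD45A is also in the p53 list below. These members too were measured in the same libraries, and the list was chosen with earlier results of these data known. Their common sign therefore does not count as repeated evidence. Per-sample levels of the targets, taken in the same way, overlapped between groups, at -0.43 to 0.20 in control and -0.73 to -0.23 in edited samples.

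**Figure D4:**
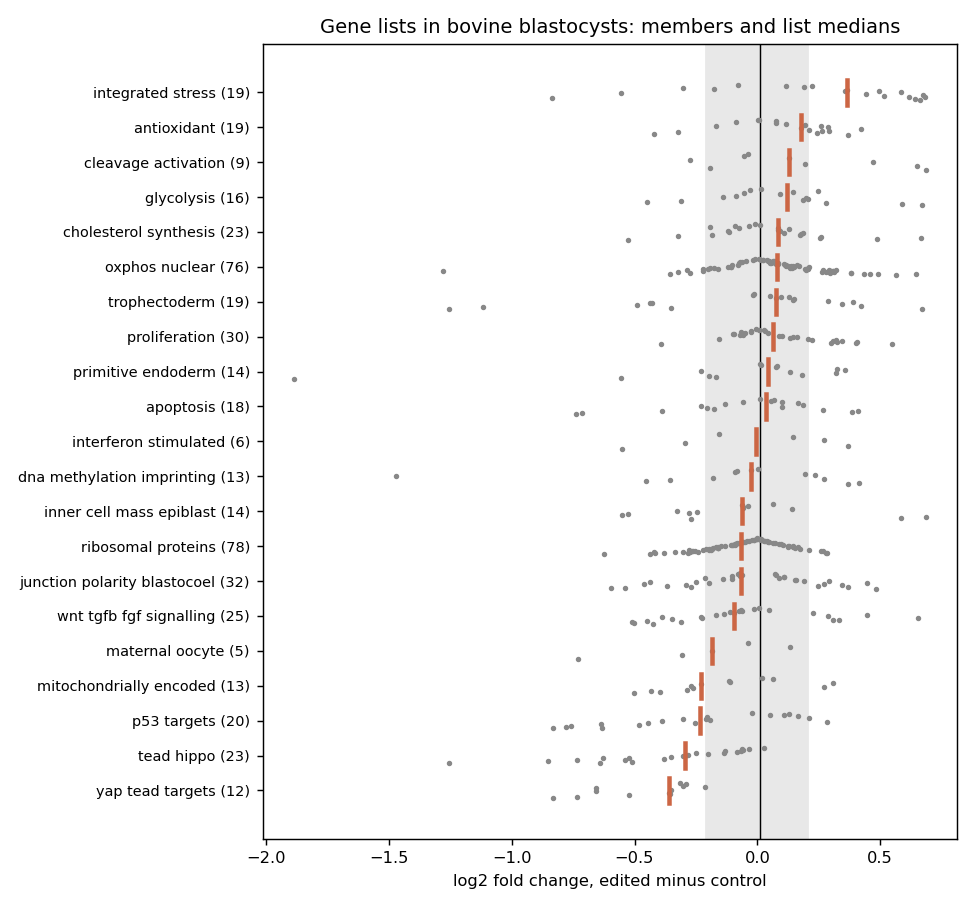
Log2 fold change (x axis, edited minus control) of every tested member (grey points) of the gene lists with at least 5 tested members, with list medians as orange bars, list sizes in parentheses, and the middle 50% and the median of all tested genes as the shaded band and black line. The bars of the YAP and TEAD targets (-0.36), the Hippo and TEAD genes (-0.29), the p53 targets (-0.23) and the mitochondrially encoded genes (-0.23) lie left of the band, that of the integrated stress list (0.36) lies right of it, and the lineage lists lie inside it.

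Inner cell mass and epiblast genes did not separate the groups. POU5F1 (OCT4), the pluripotency factor of the inner cell mass, stood at 271 to 566 normalized reads in control samples (median 324) and 174 to 468 in edited samples (median 302). Its log2 fold change was -0.25 (-0.71 to 0.22), which bounds it within 2-fold. SOX2, its DNA-binding partner, had -0.52 (-1.24 to 0.19) at a mean of 21.8 normalized reads. NANOG, the epiblast factor, was not bounded at all, with 0.07 (-2.13 to 2.26). NANOG ran from 0 to 172 normalized reads in control samples and from 0.65 to 226 in edited samples. KLF17 had 0.69 (-0.20 to 1.57). Of the 14 tested genes, 10 had a log2 fold change below 0, against 48.5% of all tested genes, with a median of -0.06. None of the 14 passed an unadjusted p under 0.05 in limma, and 9 were bounded within 2-fold. DPPA3, SPIC and SALL4 had the closest intervals to 0, at -0.04 (-0.45 to 0.38), -0.06 (-0.43 to 0.32) and -0.06 (-0.51 to 0.39).

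Primitive endoderm factors were likewise at similar levels, and laminins of this list were lower in estimate. GATA6, the factor that specifies primitive endoderm, stood at 315 to 481 normalized reads in control samples (median 400) and 313 to 430 in edited samples (median 346). The log2 fold change of GATA6 was -0.17 (-0.50 to 0.17), within 1.5-fold. The endocytic receptor LRP2 and its adaptor DAB2, found in both trophectoderm and primitive endoderm, had 0.13 (-0.29 to 0.56) and 0.07 (-0.29 to 0.44). Both were bounded within 1.5-fold. PDGFRA, a growth factor receptor of primitive endoderm, had 0.02 with bounds of -0.89 and 0.92.

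LAMA1, the alpha chain of the laminin in the first basement membranes of the embryo, had the largest log2 fold change of the list. It stood at 20.01 to 39.3 normalized reads in control samples (median 27.6) and at 2.30 to 18.4 in edited samples (median 6.32), with no overlap. The log2 fold change of LAMA1 was -1.89 (-2.71 to -1.07) with a limma adjusted p of 0.259. LAMC1, the gamma chain, had -0.56 (-1.05 to -0.06), and LAMB1, the beta chain, had -0.20 (-0.60 to 0.20). The collagen IV chains COL4A1 and COL4A2, the other network of the basement membrane, had -0.23 (-0.99 to 0.53) and 0.18 (-0.36 to 0.73). Over the list 5 of 14 tested genes lay below 0, against 48.5% of all tested genes, with a median of 0.04.

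Genes that build the blastocoel were bounded at a share not far from that of all genes. The blastocyst cavity forms as the trophectoderm seals its tight junctions and pumps sodium, and water follows. ATP1B3, a beta subunit of the sodium pump, had a log2 fold change of 0.24 (-0.10 to 0.59). CDH1 (E-cadherin) had -0.07 (-0.43 to 0.29), the tight junction protein TJP1 had -0.29 (-0.70 to 0.12), and the water channel AQP3 had -0.14 (-0.58 to 0.30). EZR (ezrin), which links actin to the apical membrane, had 0.48 (0.12 to 0.84). Of 32 tested junction, polarity and pump genes 26 (81.3%, against 76.4% of all genes) were bounded within 2-fold and 14 within 1.5-fold, and EZR was the only member with an unadjusted p under 0.05.

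Housekeeping functions, whose genes are mostly of high level, were held to narrow limits. Of all tested genes 76.4% were bounded within 2-fold, and 94.6 to 98.2% in the level ranges above a mean of 100. Of 78 ribosomal protein genes 77 were bounded within 2-fold and 59 within 1.5-fold, with a median of -0.07. Of 76 nuclear genes of oxidative phosphorylation 74 were bounded within 2-fold and 47 within 1.5-fold, with a median of 0.08. Of 30 proliferation genes 29 were bounded within 2-fold, and of 19 antioxidant genes 18 were. The 13 genes of the mitochondrial genome had a median of -0.23, with 12 bounded within 2-fold. An exception among the respiratory genes was NDUFA1, a subunit of complex I, with -1.28 (-3.09 to 0.53), since edited 2 held 0 reads and the lowest of the other samples held 69.0 normalized reads.

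Stress genes gave some of the larger list medians. The integrated stress and unfolded protein list had a median of 0.36, with 14 of 19 tested genes above 0, against 51.5% of all tested genes. At an unadjusted limma p under 0.05, 5 of 19 lay above and 1 below, against 2.77% and 3.11% of all tested genes. HSPA5 (BiP), the main chaperone of the endoplasmic reticulum, stood at 410 to 904 normalized reads in control samples (median 722) and 716 to 1490.5 in edited samples (median 1098). Its log2 fold change was 0.66 (0.21 to 1.11). DNAJB9, a cochaperone of HSPA5, had 0.64 (0.17 to 1.11), and SLC3A2, an amino acid transporter subunit, had 0.62 (0.14 to 1.09). ATF4, the transcription factor of the response, had -0.18 (-0.55 to 0.20), and ATF3, a second factor, had -0.84 (-1.47 to -0.20). None passed adjustment, with a limma adjusted p of 0.792 for HSPA5 and ATF3.

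Targets of p53, the factor activated by DNA damage, had a median of -0.23, with 14 of 20 tested genes below 0. The share below 0 over all tested genes was 48.5%. At an unadjusted limma p under 0.05, 4 of the 20 were lower, against 3.11% of all tested genes. These 4 were TP53INP1 with -0.63 (-1.07 to -0.19), GADD45A, the p53 ligase MDM2 with -0.78 (-1.44 to -0.12) and PHLDA3 with -0.76 (-1.49 to -0.03). CDKN1A (p21), the cell cycle inhibitor of this response, had -0.02 (-0.90 to 0.86). Interferon-stimulated genes, 6 of which were tested, had a median of -0.01. Of 25 tested Wnt, TGF-beta and FGF signalling genes none passed an unadjusted p under 0.05 in limma, with a median of -0.10, and 17 were bounded within 2-fold.

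Markers of other cells were checked in the same samples. Whole blastocysts mix lineages, so fewer cells of a type and less RNA per cell cannot be told apart here. No blood or sperm marker reached a mean of 10 normalized reads, and the summed level of the blood list was 10.8 to 39.8 in control and 4.24 to 24.7 in edited samples. Of the cumulus and granulosa list, 10 of 15 symbols had a row, and their summed level was 62.2 to 249 normalized reads in control and 35.4 to 119 in edited samples. Its 2 tested members were COL1A2, a collagen chain, and HSD3B1, a steroid enzyme. COL1A2 had -1.05 (-1.75 to -0.36) with an unadjusted limma p of 0.00502. HSD3B1 had -1.04 (-3.12 to 1.03), an interval that passes 2-fold on both sides. The defining granulosa marker CYP19A1 stood at 1.71 to 15.4 normalized reads in control and 1.41 to 6.02 in edited samples, and FSHR, another granulosa marker, at 0 to 5.53 in control (median 3.27) and 1.30 to 14.8 in edited samples (median 10.1). The edited median was the lower for 7 of the 10 and the higher for 3. The part of these cells in the results was not tested. Of 16 oocyte genes with a row, the edited median was lower for 11 and higher for 5. BMP15 was at 0 in all 6 edited samples and above 3 normalized reads only in controls 4 (21.96) and 5 (19.4), while ZP3 had medians of 4.89 in control and 8.07 in edited samples.

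The bovine response differed from that of mouse morulae edited at the same gene. Mouse values come from a separately normalized table with 2 samples per group, and species and stage cannot be told apart. Of 7063 symbols tested in both tables, the difference of the log2 fold changes passed an adjusted p of 0.05 for 428 (6.06%), 260 with a higher bovine and 168 with a lower bovine value. That count rested on single mouse libraries, since it was 109 without mouse control 1, 143 without control 2, 251 without edited 1 and 890 without edited 2. Among the 27 shared core genes, the difference passed for 10. TEAD4 itself was among them, with -2.86 (-3.37 to -2.36) in mouse against -1.25 in cattle, a difference of 1.61 ± 0.35 (SE, adjusted p = 0.00355 from the limma fits). Without mouse control 2 this TEAD4 difference was 1.52 with an adjusted p of 0.0615.

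The lineage genes that differed between the responses were mostly near 0 in cattle and far below 0 in mouse. GATA3 had a log2 fold change of -2.20 (-2.62 to -1.78) in mouse against -0.02 in cattle, a difference of 2.18 ± 0.28 (SE). KRT18 had -3.79 in mouse against 0.05, and KRT8 had -1.74 against 0.14. DAB2 had -3.73 against 0.07, and LRP2 had -6.36 against 0.13, the largest difference of the core genes at 6.50 ± 0.31 (SE). POU5F1 differed the other way, with 1.40 (1.01 to 1.80) in mouse and -0.25 in cattle. For AMOTL2, the mouse value was -4.70 and the bovine value -0.73. PTGES had -3.97 in mouse against -1.12 (-2.23 to -0.0028) in cattle. ID2 had -4.17 in mouse against 0.29 (-0.58 to 1.16) in cattle. Neither PTGES nor ID2 was bounded within 2-fold in cattle. Core genes whose difference did not pass included TFAP2C at -0.53 ± 0.25 (SE), YAP1 at -0.65 ± 0.30 (SE) and GATA6 at 0.16 ± 0.23 (SE), bovine minus mouse.

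Genes called in mouse morulae were bounded in cattle at a share near that of all shared genes. The share was lower for the called genes that changed beyond 2-fold in mouse. Of 1112 shared genes called in mouse, 926 (83.3%) were bounded within 2-fold in bovine blastocysts, a share near the 81.2% of all shared genes. Among the 416 called in mouse with a change beyond 2-fold, the bovine interval lay within 2-fold for 302 (72.6%), below that 81.2%. The difference between the species passed the threshold for 221 of the 416, against 6.06% of all shared genes. That count cannot be read as a separate result, since the 416 were chosen by the mouse change that enters the difference. LOC101905257 had no row in the mouse table, so the overlap of called genes could not be examined.

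**Figure D5:**
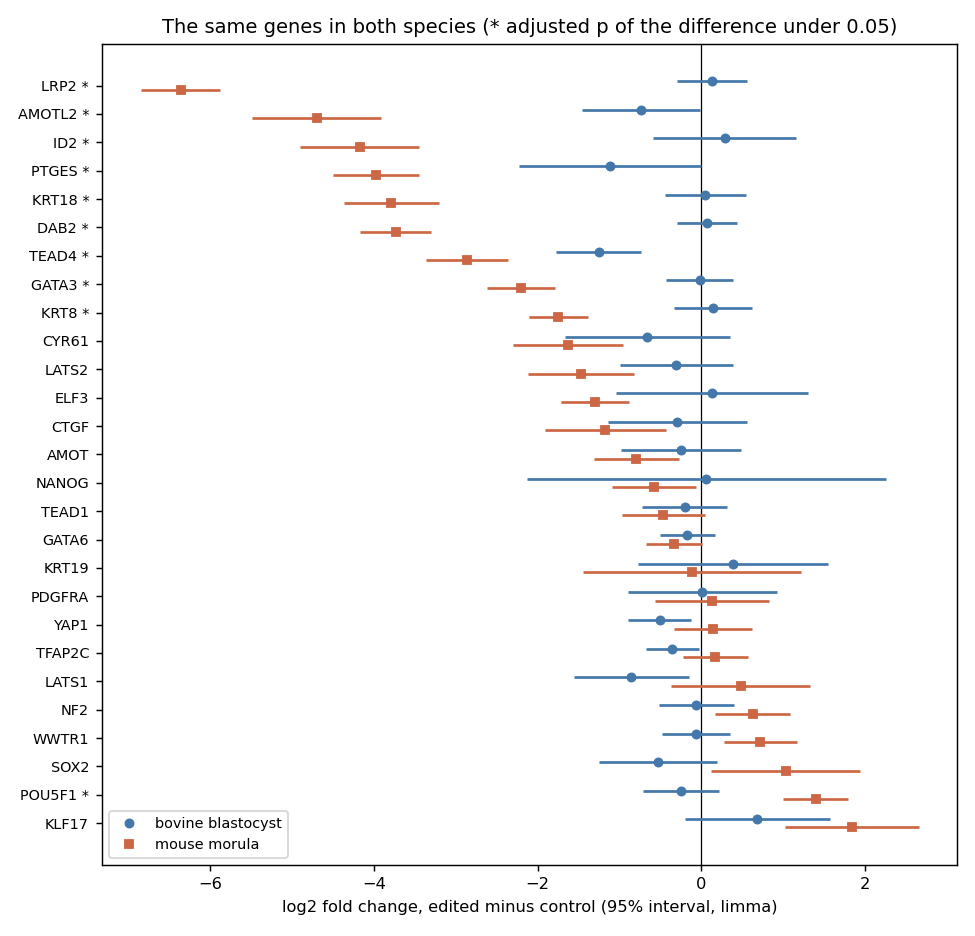
Log2 fold change with 95% interval of the core genes tested in both species, bovine blastocysts and mouse morulae in different colours. GATA3, KRT18, DAB2 and LRP2 lie near 0 in cattle and between -2.20 and -6.36 in mouse, and POU5F1 lies at -0.25 in cattle and 1.40 in mouse.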

How the data were processed

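Smart-seq2 libraries were made from polyadenylated RNA primed with oligo(dT), per the labels' protocols. Trimmomatic, HISAT2, featureCounts and DESeq2, without versions, and the builds ARS-UCD1.2 and mm10 are named in the submitters' processing notes. The annotation, the strand setting and the handling of multiply matching reads are not given in the sources used here, which leaves near-identical copies and antisense genes uncertain. Deposited signal values are gene counts that the authors scaled by 1 size factor per library, per the file headers. In each bovine sample 100% of values were whole multiples of 1 read at a tolerance of 0.05, which gave the depths and the reads for edgeR and DESeq2. The authors' deposited log2 fold changes, test statistic (a score) and p-values were not used.

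Genes with a mean of at least 10 were fitted by limma 3.58.1 under R 4.3.3 on log2(value + 1), with a trend, two-sided, 6 against 6 and no covariate, and p-values were adjusted by Benjamini-Hochberg over all 8884 genes at 0.05. Intervals of 95% come from the same fit. TEAD4 and LOC101905257 also had an exact permutation test of mean log2 values. Species differences divide the difference of 2 limma log2 fold changes by the root of their summed squared standard errors, with Satterthwaite degrees of freedom. The script was tested on simulated data. Alternatives were other pseudocounts (0.5, 5), filters (none, a mean of 50), scalings, limma settings, edgeR 4.0.16, DESeq2 1.42.0, a replicate block and leaving out each sample.

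The members, the core genes and the 25 gene lists were chosen with earlier results of these data known. Named were TEAD4, the core genes, every gene called, genes with an unadjusted p under 0.01, a mean of at least 100 and groups without overlap, per list the members with the largest change, lowest p and narrowest interval, and the 10 narrowest at a mean of at least 100. Other list members were named after their values were seen. Of the bovine names, 95.1% matched the RefSeq gene table of ARS-UCD2.0, used only for names, chromosomes and neighbours. Sequences and genome coordinates were not used here, and some items are not reported here.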

Additional observations from a re-analysis of the deposited data

Results flagged for a closer look

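In 8 of the 176 groups of 6 values checked (4.55%, where chance alone flags about 5%), 1 sample stood far from the other 5 by Dixon's test. In control 6, SREBF2 was high at 145.9 normalized reads, EIF5 was low at 761 and SPRY4 was at 0. In control 2, PTGES was low at 4.62 and ELF3 at 1.54. Among edited samples, NDUFA1 was at 0 in edited 2, GATA3 was low at 171 in edited 3, and the RN18S1 share was high at 19.7% in edited 2.

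For 10 core genes the bovine and mouse responses differed by the test of the difference at an adjusted p of 0.05. The log2 differences, bovine minus mouse, were 6.50 for LRP2, 4.46 for ID2, 3.97 for AMOTL2, 3.84 for KRT18, 3.81 for DAB2, 2.86 for PTGES, 2.18 for GATA3, 1.89 for KRT8, 1.61 for TEAD4 and -1.65 for POU5F1. Species and stage cannot be told apart in them.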

How the results depend on the processing

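The count of called genes was 1 under every alternative except DESeq2 on recovered reads, which called 5, all lower (LOC101905257, TEAD4, HIST1H1C, GNB4 and LAMA1). The TEAD4 log2 fold change by DESeq2 was -1.21 with an adjusted p of 0.0066, and HIST1H1C had -0.92 and LAMA1 -1.77 there. Leaving out 1 sample at a time kept TEAD4 between -1.40 and -1.10, the called count at 1 and the count bounded within 2-fold between 6108 and 6836. With a mean of at least 50 that count was 3878 of 4248, since fewer genes were tested. edgeR gave no interval count. The replicate numbers did not pair the samples (correlation of same-numbered deviations from -0.19 to 0.34, 1 of 6 best with its own number), and a replicate block left 1 called gene, TEAD4 at -1.25 and 6924 bounded genes. Scaling every sample to the same total moved the median of all genes to 0.13. Under it the Hippo list had a median of -0.18, the weakest of its range of -0.40 to -0.18 over all alternatives. Its YAP and TEAD target counterpart ranged from -0.52 to -0.24. Signs of named genes changed in 20 of 1009 gene and setting pairs, and in 48 of 1032 with 1 sample left out, none for a gene with an unadjusted p under 0.05. The species count ranged from 109 to 890 with 1 mouse sample left out. The KRT18 difference had an adjusted p of 0.0663 with robust limma.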

Other observations

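Genes outside the lists that stood apart were few, and those given here were named after their values were seen unless the rule for named genes picked them. HIST1H1C, a linker histone, stood at 105 to 156 normalized reads in control samples and 49.2 to 88.5 in edited samples, with no overlap and a log2 fold change of -0.90 (-1.28 to -0.52, limma adjusted p = 0.235). HIST1H1E had -0.87 (-1.44 to -0.29) with overlapping groups. Of 22 tested histone genes 15 lay below 0, against 48.5% of all tested genes, with a median of -0.12. The replication-independent H2AFZ had 0.22 (-0.12 to 0.55). CLIC1, a chloride channel protein, was among the few genes with every edited sample higher, at 1312 to 2074 normalized reads in control and 2140 to 3232 in edited samples. Its log2 fold change was 0.60 (0.27 to 0.93, limma adjusted p = 0.792).

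In the RefSeq gene table of ARS-UCD2.0, LOC101905257 is on chromosome 7, and LOC101905194 is the second gene after it. LOC101905194 had a log2 fold change of -1.21 (-1.98 to -0.44) with an unadjusted limma p of 0.00378 and overlapping groups. MED7, a Mediator subunit and the fifth gene after it, had -0.21 (-0.74 to 0.32). XIST, the RNA that coats the inactive X chromosome of female cells, ran from 0 to 1026 normalized reads in control samples (median 332). Edited samples ran from 0 to 515 (median 16.2). The control median falls in a gap between high and low samples. XIST was high in controls 2, 3 and 6 (846, 1026 and 643) and at most 20.8 in the other controls. Among edited samples XIST was high in 4 and 5 (515 and 298) and at most 21.2 in the others. Its log2 fold change of -1.47 had the widest interval of the tested genes, from -4.74 to 1.79.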
